A study of Rattus norvegicus with 6 samples.

Results

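Celf3, Nsg1, Trnp1 and Ppp2r2b are genes best known from neurons, and they were followed here in rat bone marrow mesenchymal stem cells (BMSCs), adherent stromal cells grown from marrow. They are 4 of the 91 genes for which a probe on these arrays could be given a name. They were chosen by the difference of their levels between hypoxia and normoxia on these same 6 arrays, with 2 genes lower and 2 higher under hypoxia. Their differences are therefore a description, with no test.

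Total RNA was hybridised to Agilent arrays of 1 colour, with an array for each sample, on which labelled RNA binds to probes and spot brightness rises with the amount of transcript. All samples were BMSCs of Sprague-Dawley rats, and the methods state that the cells came from young animals of either sex. The normoxia group held 3 samples kept in normoxia for 48 h, and the hypoxia group held 3 samples kept for 48 h in gas adjusted to 0% oxygen. The samples of a group are labelled biological replicates, but whether each came from its own animal is not given in the sources used here. The labels name no transgene or other treatment, and cultured cells in gas without oxygen are a model that lacks the surrounding tissue.

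CELF-family proteins bind RNA and regulate splicing, and Celf3 is a member found mostly in the nervous system. Nsg1 encodes a neuron-enriched membrane protein of endosomes that takes part in receptor sorting. Trnp1 encodes a nuclear protein known from neural progenitors of the developing cortex. Ppp2r2b encodes a regulatory B subunit of protein phosphatase 2A that is abundant in brain, where such subunits direct the phosphatase to its substrates. The word neuronal rests on this background and not on these arrays.

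The promoters of the 3 genes with a single-spot probe are shown because low oxygen stabilises hypoxia-inducible factors, which bind a short core motif. They are the RefSeq sequences of the rat build GRCr8, each 300 bases from 250 before to 50 after an annotated start, 5′ to 3′ on the strand of the gene. Capitals mark the core ACGTG or GCGTG on either strand, so that CACGT and CACGC mark it on the opposite strand, and overlapping matches were counted separately. The Celf3 window lies at chr2:184804841-184805140 on the plus strand, that of Nsg1 at chr14:76860829-76861128 on the plus strand and that of Trnp1 at chr5:150997084-150997383 on the minus strand.
Celf3: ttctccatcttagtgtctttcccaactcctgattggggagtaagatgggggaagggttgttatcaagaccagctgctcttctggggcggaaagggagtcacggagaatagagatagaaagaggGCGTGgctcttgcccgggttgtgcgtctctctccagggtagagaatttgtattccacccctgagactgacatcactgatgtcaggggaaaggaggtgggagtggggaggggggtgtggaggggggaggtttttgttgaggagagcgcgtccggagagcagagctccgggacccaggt
Nsg1: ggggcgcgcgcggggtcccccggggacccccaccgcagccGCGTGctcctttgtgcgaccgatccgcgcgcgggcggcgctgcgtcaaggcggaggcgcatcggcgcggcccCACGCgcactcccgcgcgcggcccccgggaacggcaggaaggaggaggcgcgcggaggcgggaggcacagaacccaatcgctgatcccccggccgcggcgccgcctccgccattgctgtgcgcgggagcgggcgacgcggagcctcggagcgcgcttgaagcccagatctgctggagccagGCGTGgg
Trnp1: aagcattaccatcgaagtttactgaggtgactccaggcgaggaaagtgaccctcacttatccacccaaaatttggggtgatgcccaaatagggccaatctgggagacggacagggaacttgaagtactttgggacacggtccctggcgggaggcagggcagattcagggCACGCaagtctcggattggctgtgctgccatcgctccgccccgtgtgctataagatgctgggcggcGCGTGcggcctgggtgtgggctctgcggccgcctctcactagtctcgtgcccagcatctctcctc

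The core was found 1 time in the Celf3 window, 3 times in the Nsg1 window and 2 times in the Trnp1 window. For Ppp2r2b, RefSeq gave 3 windows on chromosome 18 of the same build, with 1, 2 and 2 matches. Of 33469 promoters of the same length, 41.6% held at least 1 match, 19.2% at least 2 and 8.15% at least 3. The Nsg1 window was the richest in G and C, at 78.3%, against 59.3% in Trnp1 and 56.3% in Celf3. The genes that fell and those that rose both held the core, and a match to these letters is a description of the window.

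Apart from controls, 41800 spots of 38804 probes were read on each array, and 0 were saturated. Median spot intensity lay between 23.9 and 36.9 on the normoxia arrays, was 25.0 on hypoxia replicate 1, and was 54.2 and 46.1 on hypoxia replicates 2 and 3. The arrays were read in 2 scans, and hypoxia replicates 2 and 3 were the only arrays of the second, where the median local background was 22.5 and 22 against 14 to 16 in the first. Values of hypoxia replicate 1 are therefore given beside those of the other hypoxia arrays. Of the marker genes listed for marrow stromal cells, 0 of 12 had a named probe, so the labelled cell type was not checked here.

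All 4 genes were detected on all 6 arrays, and in all 4 the hypoxia arrays did not overlap the normoxia arrays. Of the 30451 probes detected on at least 3 arrays, 39.6% likewise did not overlap, and 8.72% differed by over 2-fold in the group means. limma called 3.64% of those probes at its threshold, an adjusted p under 0.05 with over 2-fold change, 0.923% higher and 2.71% lower under hypoxia. The 281 higher and 826 lower probes behind these shares became 2551 and 2683 without hypoxia replicate 1, and 1243 and 919 with scaling to the 75th percentile. The 4 genes were all called, as their choice from this contrast fixes, so that nothing is read from their count. In whole-culture RNA, fewer cells that express a gene and less of its RNA per cell cannot be told apart.

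**Figure D1:**
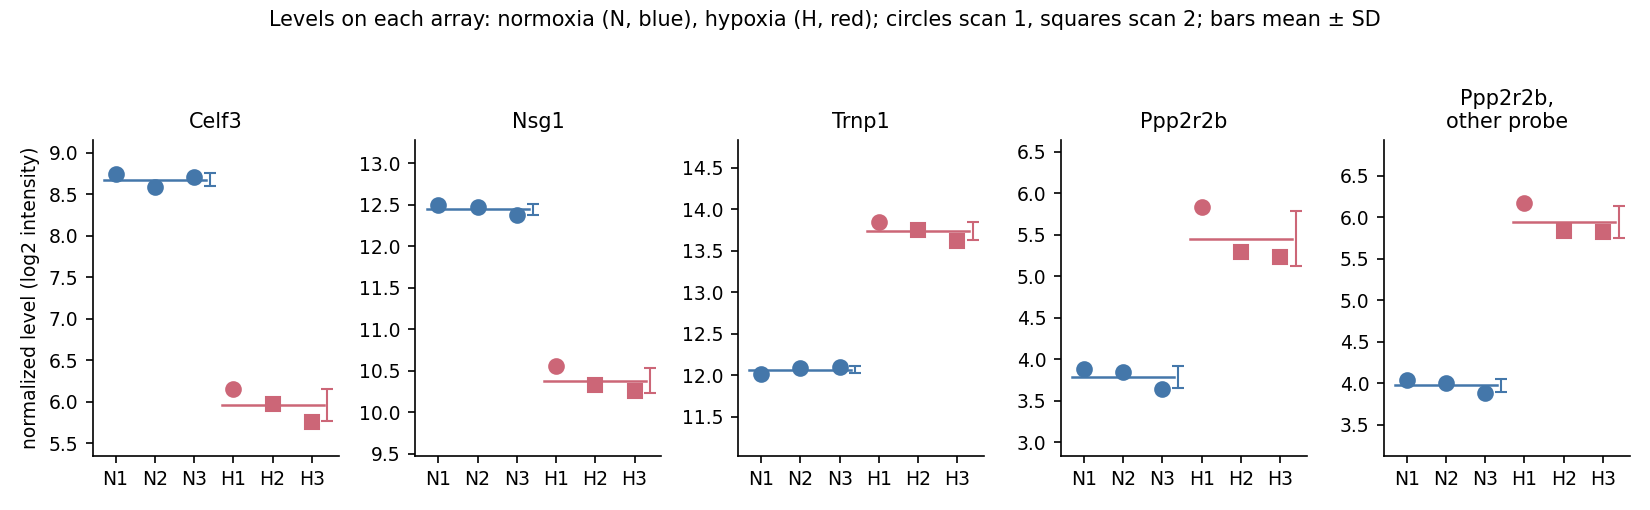
Normalized level (log2 intensity, vertical axis) of each gene on normoxia arrays N1 to N3 (blue) and hypoxia arrays H1 to H3 (red), with circles for the first scan, squares for the second, and bars for the group mean and SD. Celf3 and Nsg1 lay lower on every hypoxia array, Trnp1 and both probes of Ppp2r2b higher, and the vertical axes differ between panels because levels of different probes cannot be set against each other.

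Celf3 had the largest difference of the 4 genes after quantile normalization of the processed signal. Its normalized log2 level was 8.74, 8.58 and 8.70 on normoxia replicates 1 to 3 and 6.15, 5.97 and 5.76 on hypoxia replicates 1 to 3. The groups were separated by 2.43 between the lowest normoxia and the highest hypoxia array, several times the spread within either group. The mean fell from 8.67 ± 0.08 (SD, n = 3) to 5.96 ± 0.20 (SD, n = 3), a log2 difference of -2.71 or 6.56-fold lower under hypoxia. Among the detected probes, 75 had a lower difference.

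The single Celf3 spot was bright under normoxia and dim under hypoxia. Before normalization its background-corrected intensity on replicates 1 to 3 was 544, 402 and 333 in normoxia and 52.9, 90.7 and 67.2 in hypoxia. Relative to the local background around the spot, these intensities were 23.8 to 32.0 times as high under normoxia and 2.80 to 4.07 times as high under hypoxia. The lowest ratio was that of hypoxia replicate 3. When the spot medians were taken in place of the processed signal and corrected by normexp with an offset of 50, the log2 difference was -2.00. Under that setting Nsg1, at -2.03, had a slightly larger difference than Celf3. An added offset by itself makes the fold of a dim signal smaller.

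Nsg1 stood far above background under both conditions. Its normalized log2 level on replicates 1 to 3 was 12.49, 12.47 and 12.37 in normoxia and 10.55, 10.33 and 10.26 in hypoxia. Every hypoxia array lay below every normoxia array, with a gap of 1.82. The mean fell from 12.44 ± 0.06 (SD, n = 3) to 10.38 ± 0.15 (SD, n = 3), a log2 difference of -2.06 or 4.18-fold lower, and 200 of the detected probes had a lower difference.

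Before normalization the Nsg1 spot had intensities of 7799, 6175 and 4509 on the normoxia arrays, against 1226, 1447 and 1113 on the hypoxia arrays. Even on the dimmest array the spot stood 50.6 times above its local background, so the transcript was lower under hypoxia and still clearly measured. The order of the hypoxia arrays differed between the scales, since replicate 2 was the brightest before normalization and replicate 1 the highest after it.

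Trnp1 rose from a level that already stood far above background. Its normalized log2 level on replicates 1 to 3 was 12.02, 12.08 and 12.10 in normoxia and 13.85, 13.75 and 13.62 in hypoxia. The normoxia arrays lay within 0.08 of each other and the hypoxia arrays within 0.22, with a gap of 1.52 between the groups. The mean went from 12.07 ± 0.04 (SD, n = 3) to 13.74 ± 0.11 (SD, n = 3), a log2 difference of 1.67 or 3.18-fold higher. Among the detected probes, 167 had a larger increase.

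The Trnp1 intensities were 5636, 4760 and 3787 under normoxia and 11849, 15735 and 11430 under hypoxia. All of them were at least 303 times the local background, so that background had little weight in this difference. The probe belongs to a series of probe names used for LncRNAs and was listed among LncRNAs in the study's source data. Which Trnp1 transcript and strand it measures is not given in the sources used here, and its value may not be that of the protein-coding mRNA.

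Ppp2r2b was close to background under normoxia and was measured by 10 spots of 1 probe on each array and by a second probe with 1 spot. From the 10 spots, its normalized log2 level on replicates 1 to 3 was 3.89, 3.84 and 3.64 in normoxia and 5.84, 5.30 and 5.23 in hypoxia. Hypoxia replicate 1 was the highest, and the gap between the groups was 1.34. The mean went from 3.79 ± 0.13 (SD, n = 3) to 5.46 ± 0.33 (SD, n = 3), a log2 difference of 1.67 or 3.17-fold higher, and 169 of the detected probes had a larger increase.

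The second Ppp2r2b probe moved the same way. Its normalized log2 level was 4.04 and 3.89 on normoxia replicates 1 and 3 and lay between these on replicate 2, and it was 6.17, 5.83 and 5.83 on hypoxia replicates 1 to 3. On this probe too replicate 1 was the highest hypoxia array and the groups did not overlap. The mean went from 3.98 ± 0.08 (SD, n = 3) to 5.94 ± 0.20 (SD, n = 3), a log2 difference of 1.96 or 3.90-fold higher. Its background-corrected intensity on the normoxia arrays was 0.967, 0.928 and 0.757 times the local background, which limits this fold. Both probes were read from the same 6 samples, so the second is a repeat of the measurement and not of the experiment.

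Signal over background limits how well the size of the Ppp2r2b increase is known. The mean background-corrected intensity of the 10-spot probe was 14.8, 12.5 and 8.19 on the normoxia arrays, which is 0.956, 0.879 and 0.590 times the local background beneath it. Under hypoxia it was 42.0, 60.3 and 48.6, or 3.22, 2.65 and 2.11 times the local background. The signal left under normoxia was thus smaller than the local background, although all spots passed the detection flags. With normexp on the spot medians the log2 difference of the 10-spot probe was 0.53, under the 2-fold threshold.

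The repeated spots give the measurement error within an array, which is technical. Of the 60 spots, 5 were outliers by the scanner software and were left out, leaving 27 spots on the normoxia and 28 on the hypoxia arrays. The intensity of the spots used ranged from 12.6 to 17.7 on normoxia replicate 1, with a median of 14.5. It ranged from 9.93 to 15.5 on replicate 2, with a median of 12.5, and from 6.86 to 8.98 on replicate 3, with a median of 8.67.

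On hypoxia replicate 1 the spots ranged from 37.3 to 45.7, with a median of 43.0. They ranged from 56.8 to 63.7 on replicate 2, with a median of 60.8, and from 43.8 to 59.7 on replicate 3, with a median of 48.1. The brightest normoxia spot used, at 17.7, was below the dimmest hypoxia spot, at 37.3. At each of the 10 places on the array, the spot was brighter on all 3 hypoxia arrays than on all 3 normoxia arrays.

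**Figure D2:**
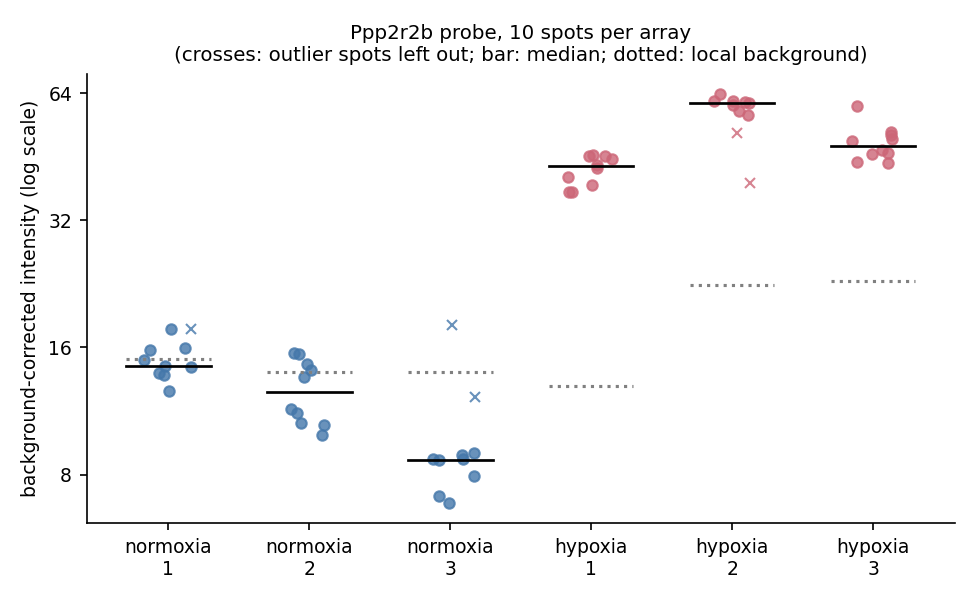
Background-corrected intensity (log scale, vertical axis) of the 10 Ppp2r2b spots on each normoxia array (blue) and hypoxia array (red), with outlier spots as crosses, the median of the spots used as a bar and the local background as a dotted line. The normoxia spots used lay between 6.86 and 17.7, around or below the local background, and the hypoxia spots used between 37.3 and 63.7, above it.

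The log2 SD over the spots of 1 array was 0.05 to 0.25, and the SD between the arrays of a condition, after normalization, was 0.13 and 0.33. On this unnormalized scale hypoxia replicate 2 was the brightest, whereas after normalization replicate 1 was the highest. Hypoxia replicates 2 and 3 came from the brighter scan, and its part in these values was not tested.

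Hypoxia replicate 1, read together with the normoxia arrays, was compared with the mean of hypoxia replicates 2 and 3. In Celf3 it lay -2.52 from the normoxia mean on the log2 scale, against -2.81 for the other hypoxia arrays. In Nsg1 the values were -1.89 and -2.15. Replicate 1 thus had 89.6% and 88.1% of the difference seen in the other hypoxia arrays. It was among the arrays by which the genes were chosen, and all normoxia arrays were in the first scan, so the values of replicates 2 and 3 are differences across scans and the part of the scan in them was not tested.

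The genes with increases had the larger change in replicate 1. In Trnp1 the log2 difference from the normoxia mean was 1.78 in replicate 1 and 1.62 in replicates 2 and 3. In Ppp2r2b it was 2.05 and 1.47 by the 10-spot probe, and 2.19 and 1.85 by the second probe. For Trnp1, replicate 1 reached 110.0% of the change in the other hypoxia arrays, and for Ppp2r2b 139% and 118% by the respective probes. With 1 hypoxia array in the first scan, this comparison has no replicate check.

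For reference, detected probes, those of the 4 genes among them, were taken by their change in hypoxia replicates 2 and 3 alone. This choice by itself favours a smaller change in replicate 1. Of 2701 detected probes that were lower by over 2-fold in hypoxia replicates 2 and 3, the median change in replicate 1 was 39.5% of theirs, with quartiles of 17.1% and 62.5%, and 23.7% were over 2-fold in replicate 1. Of 2612 probes that were higher by over 2-fold there, the median was 8.61%, with quartiles of -4.10% and 24.4%, and 10.4% were over 2-fold in replicate 1. The 4 genes were chosen by all 3 hypoxia arrays, so these shares are not set against theirs.

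**Figure D3:**
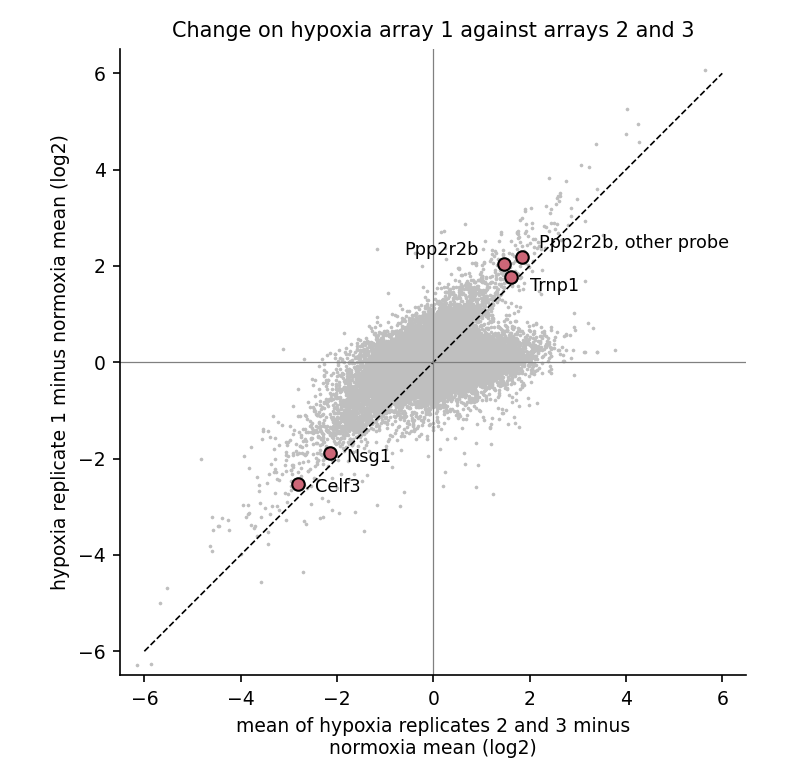
Log2 difference from the normoxia mean in hypoxia replicate 1 (vertical axis) against the mean of hypoxia replicates 2 and 3 (horizontal axis) for the 30451 detected probes (grey) and the 4 genes (red, with the second Ppp2r2b probe), with equality as a dashed line. Celf3 and Nsg1 lie near the line at -2.52 and -1.89 on the vertical axis and Trnp1 and Ppp2r2b on or above it at 1.78 and 2.05.

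The directions were the same under every alternative run for these genes, 73 in all over the 4 genes. Many of these left out arrays, which could not turn a direction because the groups do not overlap. With the 75th percentile of each array as the scale, and no quantile step, there were log2 differences of -2.28 for Nsg1, 1.45 for Trnp1 and 2.10 for Ppp2r2b. With that scaling the median log2 difference of all detected probes was 0.16, against -0.0022 after quantile normalization. For Ppp2r2b the normexp setting was the one that moved the fold change most, from 3.17-fold to below 2-fold.

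**Figure D4:**
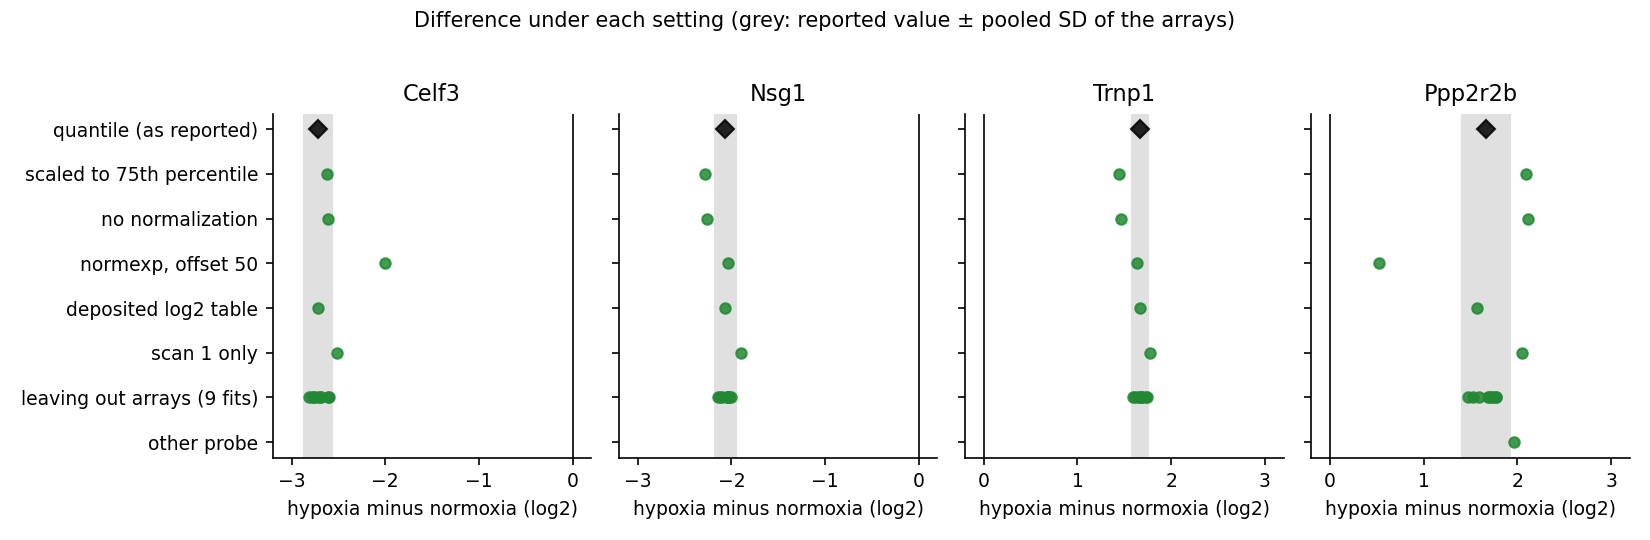
Log2 difference between hypoxia and normoxia (horizontal axis) of each gene under each processing setting (vertical axis), with the reported value as a black diamond and a grey band of the pooled SD of the arrays on each side of it. No point crosses 0, and the point farthest from its band is the normexp value of Ppp2r2b, at 0.53.

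Genes with the most similar profile were looked for by the root mean square difference between log2 profiles over the 6 arrays, each set to its own normoxia mean. Of the 93 named probes, 63 were named through lists of the study's source data, so the nearest named genes come from a narrow choice. The listed values are those of these same arrays, so that choice may not be independent of the contrast. The named genes nearest to Celf3 were Notch1, a cell-surface receptor, at 0.22, Gucy2c, a guanylate cyclase receptor, at 0.27, and Id2, an inhibitor of DNA-binding transcription factors, at 0.29. Notch1 lay -2.33, -3.17 and -3.11 from its normoxia mean on hypoxia replicates 1 to 3, which was less than Celf3 in replicate 1 and more in the others.

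Nsg1 was nearest to the uncharacterised LOC102553043 and LOC102547591, at 0.14 each, and to a probe listed as Ncaph, at 0.17. LOC102553043 lay -2.11, -2.25 and -2.35 from its normoxia mean on hypoxia replicates 1 to 3, where Nsg1 lay -1.89, -2.11 and -2.18. The profiles of both had their smallest change in replicate 1, and both had most of their change there.

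Trnp1 and the 10-spot probe of Ppp2r2b were each other's nearest named probe, at 0.17. Trnp1 lay 1.78, 1.68 and 1.56 above its normoxia mean on hypoxia replicates 1 to 3, and Ppp2r2b lay 2.05, 1.51 and 1.44 above its own. Next to Trnp1 came LOC100912312 at 0.18 and Gna14, a G protein alpha subunit, at 0.20. Next to Ppp2r2b came LOC103691977 at 0.18 and the bicarbonate cotransporter Slc4a4 at 0.21. The second Ppp2r2b probe was nearest to Slc4a4, at 0.09, Gna14, at 0.11, and Prg4, which encodes lubricin, at 0.14.

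Slc4a4, Gna14 and Prg4 also had their largest change in hypoxia replicate 1, whereas LOC100912312 had its smallest there. On hypoxia replicates 1 to 3, Gna14 lay 2.16, 1.98 and 1.65 above its normoxia mean, Slc4a4 2.15, 1.63 and 1.91, and Prg4 2.50, 1.89 and 1.71. A full change in replicate 1 was thus not particular to the 4 genes, and likeness was measured with that array included.

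Probes without a name were nearer still. The nearest was ASRN6AP1B100041605V3 to Celf3, at 0.13, ASRN6AP1B105310718V3 to Nsg1, at 0.07, ASRN6AP1B100048140V3 to Trnp1, at 0.06, and ASRN6AP1B106053864V3 to Ppp2r2b, at 0.09. Within 0.25 lay 21 of the 30450 other detected probes for Celf3, 96 for Nsg1, 76 for Trnp1 and 64 for Ppp2r2b. Of the 4 genes, Celf3 had the fewest probes within this limit. It also had the largest change, with 75 detected probes further out in its direction, and the limit was not scaled to the size of the change.

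The families and pathways of these genes could be followed little further by name. A named probe was found for 0 of 5 other CELF-family genes, 0 of 2 genes related to Nsg1, 0 of 17 other subunits and regulators of protein phosphatase 2A, 0 of 10 neuronal RNA-binding genes, 0 of 9 genes of endosomes and synaptic vesicles and 0 of 6 neural progenitor and chromatin genes. Among neuron cytoskeleton genes, 1 of 6 had one, Map2, which encodes the dendritic microtubule-associated protein and is also 1 of 9 listed neuron markers. Map2 was at a normalized log2 level of 3.01 ± 0.17 (SD, n = 3) in normoxia arrays and 2.72 ± 0.27 (SD, n = 3) in hypoxia arrays. Its log2 difference was -0.29 (standard error 0.17, Benjamini-Hochberg adjusted p = 0.296 in limma), so it did not pass the threshold in either direction. Its background-corrected intensity was 0.375 to 0.546 times the local background on the 6 arrays, all of which passed the detection flags, so a decrease could hardly be seen at this signal.

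Among markers of other cells, 0 of 5 blood cell, 0 of 5 glial and 0 of 3 endothelial genes had a named probe. Of the macrophage markers, 1 of 7 had one, C1qa, a complement subunit, whose normalized log2 level was 9.85 ± 0.25 (SD, n = 3) in normoxia arrays and 7.87 ± 0.06 (SD, n = 3) in hypoxia arrays. Its log2 difference was -1.99 (standard error 0.19, adjusted p = 0.0149 in limma). The gene was named through a source-data list headed as vector and overexpression samples, whose values are those of these arrays, so it is no independent pick. C1qa thus fell together with Celf3 and Nsg1, and the part of macrophages in the levels of the 4 genes was not tested.

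Ppp2r2b was set beside the other genes whose probe has 10 spots, which were named by accession and not by their change. Of 29 such genes, 26 were detected and tested, of which 0 were higher and 2 lower at the same limma threshold, or 7.69%, against 3.64% over all probes tested. The lower ones were Ldha, lactate dehydrogenase A, with a log2 difference of -1.24 (adjusted p = 0.0287), and the growth factor Fgf2, with -1.91 (adjusted p = 0.0252). The log2 differences of the 26 genes ran from -1.91 to 0.23 with a median of -0.45, against a median of -0.0022 over all detected probes. Ppp2r2b was chosen by its difference and these genes were not, so its place among them is not read.

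Another gene of neurons among these was looked at after its value was seen. Dlg4, which encodes the postsynaptic scaffold PSD-95, had a log2 difference of -1.32 (standard error 0.26, adjusted p = 0.0598 in limma) and did not pass the threshold. Its hypoxia SD of 0.58 was larger than that of Ppp2r2b, at 0.33.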

How the data were processed

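Total RNA of 3 normoxia and 3 hypoxia BMSC samples was measured on Agilent arrays. The authors deposited Feature Extraction 11.0.1.1 output, whose intensity values are background-corrected and not normalized between arrays, and a table of quantile-normalized log2 values, used as an alternative. Here, control and outlier spots were left out, the log2 intensities of a probe's spots were averaged, and quantile normalization was run over the 38733 of 38804 probes with a value on all arrays. Probes detected on at least 3 of 6 arrays, with detection flags on at least 0.5 of their spots, were fitted in R 4.3.3 with limma 3.58.1 (replicate number as a block, Benjamini-Hochberg adjustment). Precision is limited by the number of arrays.

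Ppp2r2b's 10-spot probe was named by accession. Names of 63 probes came from source data, where the 6 log2 values of each entry matched 1 probe within 0.001, the next nearest probe being at least 0.104 away. Celf3, Nsg1 and the second Ppp2r2b probe come from a list headed as vector and overexpression samples, whose values are those of these hypoxia and normoxia arrays. The 4 genes were named by rule, with the 3 most alike named genes of each and genes of the lists. Members and lists were chosen with earlier results of these data known.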

Additional observations from a re-analysis of the deposited data

How the results depend on the processing

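The direction of all 4 genes was kept in 73 of 73 alternatives, but many of these could not turn it. The groups do not overlap, so leaving out arrays or keeping the first scan alone could not reverse a gene. Dropping the balanced replicate block leaves a difference of means as it is, and handling of spots could hardly move a single-spot probe. The tally is therefore no check of the genes. Of the 73 values, 60 lay within the pooled SD of the arrays. The others were as follows, and the cause was not tested. normexp with an offset, run on spot medians in place of the processed signal, gave log2 differences of -2.00 for Celf3 and 0.53 for Ppp2r2b. An added offset by itself makes the fold of a dim signal smaller, and its share in these values was not separated. Scaling to the 75th percentile gave -2.28 for Nsg1, 1.45 for Trnp1 and 2.10 for Ppp2r2b, and no normalization gave -2.26, 1.46 and 2.12, with the median of all probes at 0.16 and 0.18. Within the first scan the values were -2.52 for Celf3, -1.89 for Nsg1, 1.78 for Trnp1 and 2.05 for Ppp2r2b, from 1 hypoxia array. The second Ppp2r2b probe, an alternative chosen after seeing the data, gave 1.96. Leaving out arrays gave -2.81 to -2.60 for Celf3, -2.15 to -2.00 for Nsg1, 1.59 to 1.74 for Trnp1 and 1.47 to 1.78 for Ppp2r2b. Keeping outlier spots, also chosen after seeing the data, gave 1.58 for Ppp2r2b.

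The background counts of 281 probes higher and 826 lower under hypoxia moved more. They were 1243 and 919 at the 75th percentile, 171 and 408 with normexp, and 633 and 734 with the scan as a block. Without the detection filter, where both the fit and the adjustment took in more probes, they were 57 and 122. Why these counts moved was not tested. The methods' paired test called 1 and 0 after adjustment, and 327 and 924 at an unadjusted p under 0.05. Leaving out arrays gave 202 to 2669 higher and 500 to 2741 lower, with 2551 and 2683 without hypoxia replicate 1. Without the replicate block the counts were 386 and 1150. The differences of the 4 genes stayed the same, which a balanced block fixes in advance. Same-numbered samples deviated with correlations of -0.19, -0.06 and -0.09, so the data do not show that the numbers pair the samples, and a shared origin was not tested.

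The main limits are 3 arrays per condition, a scan that holds only hypoxia replicates 2 and 3, the dim Ppp2r2b signal under normoxia, and the few probes with a gene name.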
